A study of Sus scrofa domesticus with 150 samples.

Results

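The HOX genes are a family of homeobox transcription factors that lie in 4 clusters, HOXA to HOXD. Within a cluster the genes stand in the order of their paralog number, and in the embryo the low-numbered genes are switched on first and towards the head while the high-numbered genes are switched on later and towards the tail and the limb tips. Adult skin fibroblasts keep a combination of active HOX genes that marks the body site they came from, and HOXC13 is in addition a gene of the hair follicle and nail. The genes were chosen by symbol, as all genes of the count table named HOXA, HOXB, HOXC or HOXD followed by a number. The rule found 38 of 30461 genes. Of these, 26 carried the symbol as their gene name and 12 through the protein match in their description.

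The samples came from 6 female domestic pigs of a Yorkshire-mix breed, each with 12 round full-thickness excisional wounds, 6 on either side of the back, lettered A to L. The 6 day 0 samples were the skin excised to make the wounds, and 72 biopsies of the wound edge and 72 of the wound center were taken on 14 days from day 1 to day 21, 1 pair from each of 72 wounds. All wounds were covered with Telfa Clear and Tegaderm dressings and had no other treatment, although a topical antibiotic was put on biopsy sites, so every group after day 0 shares the wounding and the dressing. Animals 1323, 1324 and 1325 were sampled on days 1, 3, 5, 7, 11, 15 and 21 and animals 1326, 1327 and 1328 on days 2, 4, 6, 9, 13, 16 and 19, so a single day cannot be told apart from its set of 3 animals. On 10 of the days each animal gave 2 wounds, and the wound letter was fixed by the day.

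HOXA held 10 genes on contig LUXX01099915.1, and HOXB held 10 genes on LUXX01007272.1 between positions 401483 and 567244. HOXC held 8 genes on LUXX01048831.1 between 680830 and 797963 plus HOXC11 alone on LUXX01023327.1 between 683 and 1647, and HOXD held 9 genes on LUXX01051700.1 between 3206720 and 3302015. The positions are those of the count table. No gene carried the symbol HOXA5. The HOXA6 gene model spanned 11221 bases between HOXA4 and HOXA7, and whether it takes in reads of another gene was not tested.

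The 150 libraries held 13133379 to 24895572 counts, and the HOX genes together took between 0.0106% and 0.0281% of them, with a median of 0.0167%. Of the 38 genes, 34 had enough counts to be tested over all samples. The other 4 were at the limit of detection. HOXB1 and HOXB13, the first and last genes of the HOXB cluster, passed 3 counts in 1 library each, HOXD12 passed 3 counts in 4 libraries and HOXD13 in 15, with at most 12 counts in any library.

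In all, 7 libraries stood apart from the others of their group, and 2 of them went against their labels. The library labelled day 3 center of animal 1324 (wound G) held 28535 CPM (counts scaled to the total of each library) of 9 keratinocyte markers summed, where the other 5 of its group held 10.1 to 1979 CPM. The library labelled day 3 edge of animal 1325 (wound G) held 71.7 CPM of the same markers, where the other 5 held 12473 to 45772 CPM. The HOXC13 values of both libraries went the same way, at 12.5 CPM against 0 to 0.488 CPM in the first and at 0 against 1.31 to 12.8 CPM in the second. The other 5 were a day 11 center library, 3 center libraries with skeletal muscle markers at 33155 to 75882 CPM, and a day 5 edge library. The day 11 center library (animal 1323, wound C) held 12225 CPM of keratinocyte markers, against 77.8 to 299.5 CPM in the others of its group. Its HOXC13 stood at 3.89 CPM against 0 to 0.127 CPM. Whether it went against its label cannot be told, as center samples of days 11 to 21 reached 44648.5 CPM of these markers. The 14-day, daily and letter pair counts without these 7 libraries are given below.

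In unwounded skin the HOXC cluster was the most active. Per length, in CPM per kilobase, HOXC13 was the highest HOX gene with a median of 43.2 and a range over the 6 animals of 7.57 to 69.8. HOXC8, which with HOXC6 belongs to the genes of the thoracic trunk, followed with a median of 11.1 (10.03 to 13.6). HOXC6 came next at 9.68 (8.17 to 12.9), and its range overlapped that of HOXC8. The raw HOXC13 counts of the 6 skin samples were 784, 134, 728, 1512, 287 and 881, a wide spread between animals. HOXC8 ranged from 395 to 550 counts in the same samples.

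The order of the HOX genes changed at the wound. At the edge, HOXC8 (median 8.13 CPM per kilobase) and HOXD8 (7.66) led, and HOXC13 had a median of 5.42 with a range of 0 to 35.3. In the center, HOXD8 led with a median of 11.95 (5.28 to 28.5), followed by HOXC9 (6.47), HOXD9 (6.19), HOXC8 (5.82) and HOXB3 (5.82). HOXC13 in the center had a median of 0.169, and 26 of the 38 HOX genes stood above it.

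As a share of all HOX counts per kilobase, the HOXC cluster took 56.3 ± 9.49% (SD, n = 6) in skin, 37.3 ± 6.48% (n = 72) at the edge and 25.03 ± 4.49% (n = 72) in the center. The HOXD cluster went the other way, with 13.2 ± 2.94% in skin, 24.5 ± 5.85% at the edge and 33.8 ± 5.75% in the center. HOXB took 13.3 ± 3.78%, 20.7 ± 3.62% and 27.4 ± 4.95%, and HOXA 17.3 ± 3.30%, 17.5 ± 3.40% and 13.8 ± 5.28%. By paralog number, genes 9 and 10 took 9.28%, 18.6% and 23.9% in skin, edge and center, and genes 11 to 13 took 28.5 ± 15.3%, 9.92 ± 5.42% and 2.02 ± 3.14%. Genes 11 to 13 were mainly HOXC13 in skin and at the edge. In the center HOXC13 had a mean of 0.723 CPM per kilobase beside 0.420 for HOXD11, 0.272 for HOXA11 and 0.164 for HOXC11. These shares are a description, since a share falls when another gene rises.

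**Figure D1:**
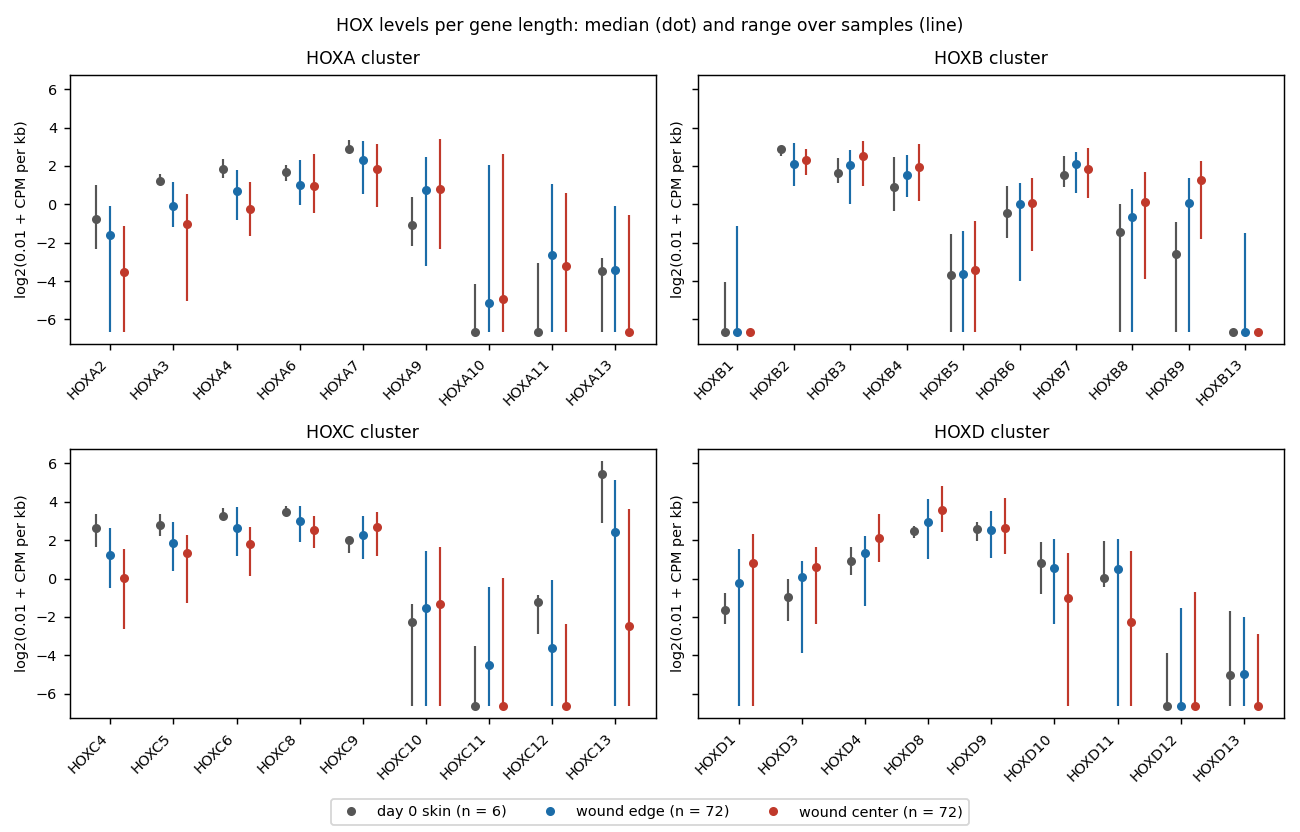
Levels of HOX genes in gene order by cluster, as log2(0.01 + CPM per kilobase), with the median (dot) and the range over samples (line) in day 0 skin (n = 6), wound edge (n = 72) and wound center (n = 72). HOXC13 has the highest skin dot and drops from 43.2 to 0.169 CPM per kilobase between skin and center, while HOXD8, HOXB9 and HOXD1 have their highest dot in the center.

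The first comparison asked how the HOX genes differ between the edge and the center of the same wounds. Averaged over the 14 days, 13 of the 34 tested HOX genes were higher at the edge and 12 were higher in the center. Over all 17916 genes tested, 32.5% were higher and 33.8% were lower at the edge, which is close to the share of HOX genes called, and nothing is read from the number itself. The median log2 fold change was 0.07 over the HOX genes and -0.01 over all genes. By cluster, 6 of 10 HOXA genes and 5 of 9 HOXC genes were higher at the edge and 1 of each was lower, whereas 0 of 8 HOXB genes were higher and 5 were lower, and 2 of 7 HOXD genes were higher and 5 were lower. No test of the clusters against each other was made. The 9 tested genes not called were HOXA6, HOXA10, HOXA11, HOXB5, HOXB6, HOXB7, HOXC10, HOXC11 and HOXC12.

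HOXC13 had the widest difference. Its edge samples ranged from 0 to 35.7 CPM with a median of 5.48, and its center samples from 0 to 12.5 CPM with a median of 0.171. The log2 fold change was 3.73 ± 0.28 (SE, edgeR adjusted p = 4.35e-24). Edge and center ranges overlapped, and the edge value of 0 and the center value of 12.5 CPM were those of the pair of day 3 libraries that went against their labels.

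HOXD11, a limb gene of the posterior end of its cluster, had medians of 1.41 and 0.204 CPM and a log2 fold change of 2.32 ± 0.21 (adjusted p = 1.88e-19). Its edge samples ranged from 0 to 4.26 CPM and its center samples from 0 to 2.69 CPM, so the ranges overlapped.

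HOXA2, which shapes the second branchial arch, had a median of 12 counts at the edge and 3 in the center (log2 fold change 1.69 ± 0.21, adjusted p = 1.95e-12). HOXA13, a gene of the digits, had 3.5 and 0 counts (1.68 ± 0.27, adjusted p = 4.29e-08), so its fold rests on few reads. Both ranges overlapped. The other genes higher at the edge were HOXD10 (1.42), HOXC4 (1.14), HOXA3 (0.98), HOXA4 (0.88), HOXC6 (0.77), HOXC5 (0.62), HOXC8 (0.45) and HOXA7 (0.35).

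On the center side, HOXB9, a thoracic gene also studied in mammary tissue, had edge values of 0 to 1.95 CPM (median 0.776) and center values of 0.209 to 3.54 CPM (median 1.79). Its log2 fold change was -1.04 ± 0.15 (adjusted p = 4.75e-10). HOXD1 followed with medians of 0.840 and 1.70 CPM and a log2 fold change of -0.97 ± 0.19 (adjusted p = 3.86e-06). These genes were low in all groups and their ranges overlapped.

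HOXD8, the most counted HOX gene of the wound, ranged from 7.64 to 65.4 CPM at the edge (median 28.7) and from 19.8 to 106.7 CPM in the center (median 44.7), with a log2 fold change of -0.64 ± 0.07 (adjusted p = 4.02e-16). HOXD4 had medians of 2.62 and 4.55 CPM (-0.87 ± 0.10, adjusted p = 5.22e-14), and HOXB8 of 0.609 and 1.05 CPM (-0.72 ± 0.16, adjusted p = 3.71e-05). HOXD3 (-0.50), HOXA9 (-0.45), HOXB3 (-0.44), HOXC9 (-0.35), HOXB4 (-0.31), HOXD9 (-0.14) and HOXB2 (-0.12) were lower at the edge by less. Without the 7 libraries that stood apart, 13 HOX genes were higher at the edge and 10 were lower.

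**Figure D2:**
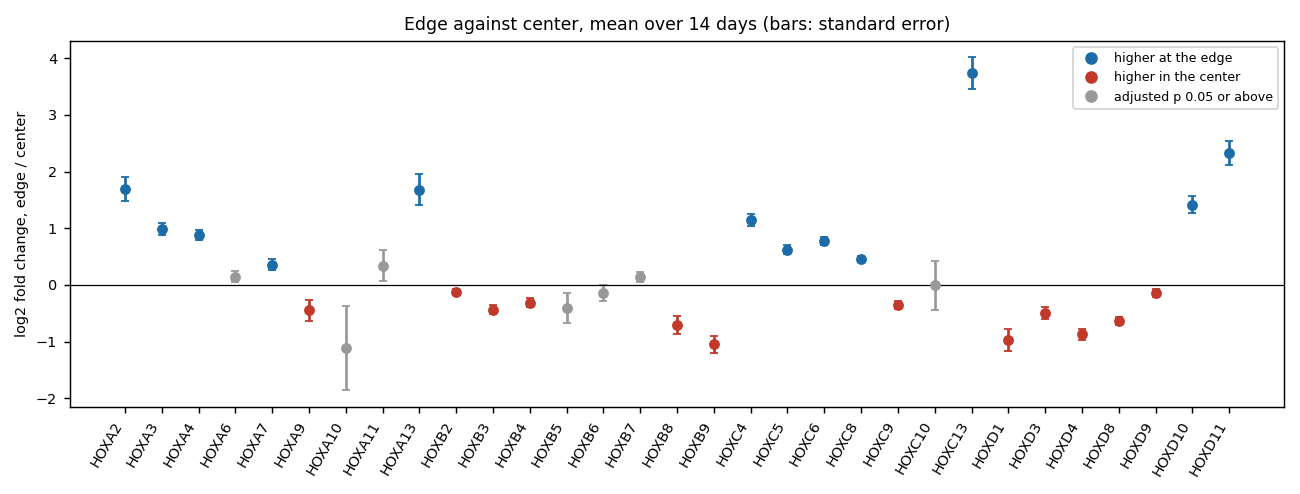
Log2 fold change of each HOX gene between wound edge and center averaged over 14 days, in cluster and paralog order, with the standard error as bars and the call at an adjusted p of 0.05 as colour. HOXC11 and HOXC12 are left out because whole groups of samples held no count. HOXC13 (3.73) and HOXD11 (2.32) are the highest points, and no HOXB point is called higher at the edge.

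Markers of several cell types also differed between the 2 locations. All 9 measured keratinocyte markers were higher at the edge, where their summed level had a median of 33671 to 47704 CPM in the 3 windows of days used below, against 138 to 3160 CPM in the center. All 8 endothelial markers were lower at the edge, as were 9 of 10 fibroblast markers, with the other 1 higher. Of 10 neutrophil and macrophage markers 2 were higher and 8 lower, and 3 of 8 skeletal muscle and 3 of 8 adipocyte markers were lower. Over all genes 32.5% were higher and 33.8% lower at the edge. The muscle and adipocyte counts are near that share, and nothing is read from them. The part of cell type in the HOX differences was not tested, and in bulk tissue fewer cells of a type and less RNA per cell cannot be told apart.

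Tested day by day, 77 gene-and-day pairs were higher at the edge and 27 were higher in the center, of 378 HOX pairs tested (20.4% and 7.14%), where the shares over all genes were 12.5% and 11%. Without the 7 libraries that stood apart the numbers were 80 and 29. Each daily test rests on 3 animals, and on 10 days the 2 wounds of an animal were treated as separate samples. HOXC13 and HOXC4 were each called higher at the edge on 9 days, and HOXA3 and HOXC6 on 8. HOXD8 was called higher in the center on 7 days, HOXD4 on 5 and HOXB9 on 4. The sign held on 14 of 14 days for HOXC13, HOXC4, HOXC6 and HOXC8 at the edge and for HOXB9 and HOXD4 in the center. The largest daily differences were all of HOXC13, the highest being that of day 2 at 6.60 ± 0.69 (adjusted p = 7.83e-06), followed by those of days 9 (6.44 ± 0.64), 5 (6.25 ± 0.54), 4 (5.69 ± 0.75) and 1 (4.31 ± 1.05). On the center side the largest among the called pairs were HOXD4 on day 1 (-1.67 ± 0.34), HOXD8 on days 1 and 2 (-1.57 ± 0.23 and -1.46 ± 0.30) and HOXB9 on days 4 and 1 (-1.40 ± 0.38 and -1.37 ± 0.38). HOXB8, called on 0 days, reached -1.89. With the wound as a block for its edge and center samples, HOXB9 was not called on day 1 and HOXD8 was called on 5 days, without days 6 and 11, while HOXC13 was called on 10 days, HOXC4 on 8 and HOXD4 on 6. The block also changed the calls higher in the center from 2 to 6 on day 4, from 4 to 2 on day 2 and from 3 to 0 on day 6, and those higher at the edge from 1 to 0 on day 16.

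The number of calls differed between days. On day 7, 11 HOX genes were higher at the edge and 5 were lower, against 20.4% and 17.1% of all genes, and on day 1 the counts were 8 and 6 against 24% and 22.6%. On day 9, 11 were higher and 0 lower by edgeR, against 17.3% and 14.3%. On day 3, 0 HOX genes and 0% of all genes were called in either direction, with 2 HOX genes higher and 2 lower at an unadjusted p under 0.05, and without the libraries that stood apart the calls on that day were 2 and 3. On days 19 and 21, with 3 samples a group, 0 HOX genes were called by edgeR, 0% and 0.0684% of all genes were called higher, and 0 and 4 HOX genes were higher at an unadjusted p under 0.05.

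The second comparison set the wound against day 0 skin in 3 windows, days 1 to 3, 4 to 9 and 11 to 21. All 6 contrasts share the 6 skin samples, so their values are given side by side. The skin samples carry no wound letter, and the windows hold different sets of letters. For a gene that differs by letter, wounding and site on the back thus cannot be told apart. At the edge, 2 HOX genes were higher than skin and 13 lower in days 1 to 3 (24.9% and 23.9% of all genes), 7 and 12 in days 4 to 9 (28.2% and 27.2%), and 9 and 10 in days 11 to 21 (20.8% and 20%). In the center, 6 and 16 were higher and lower in days 1 to 3 (33.6% and 33.2%), 12 and 16 in days 4 to 9 (34.5% and 36.8%, or 71.3% in either direction), and 11 and 13 in days 11 to 21 (28.6% and 33.1%, or 61.7% in either direction). Without the 7 libraries that stood apart, 3 were higher at the edge in days 1 to 3 and 7 and 11 higher in the center in days 1 to 3 and 4 to 9, with the other counts as given. HOXA10 and HOXB9 were the 2 genes higher at the edge in days 1 to 3, and HOXA10 was not called without animal 1323, 1324, 1325, 1326 or 1328, nor without the filter on low counts. On days 1 and 2 HOXA10 held 0 to 1 edge counts in wound A and 5 to 32 in wound L.

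HOXA3, HOXA4, HOXB2, HOXC4, HOXC5, HOXC6 and HOXC13 were called lower than skin in all 6 contrasts. HOXC13 fell from a skin median of 43.7 CPM (7.65 to 70.6) to 4.94 CPM (1.14 to 24.0) at the edge and to 0.177 CPM (0 to 0.479) in the center in days 4 to 9, and the center samples of that window did not overlap the skin samples. The log2 fold change was -2.78 ± 0.49 at the edge (adjusted p = 6.64e-07) and -7.88 ± 0.54 in the center (adjusted p = 2.34e-27). HOXC13 stood at -2.63 ± 0.55 and -2.44 ± 0.53 at the edge, and at -6.77 ± 0.63 and -4.83 ± 0.55 in the center, in the first and last windows.

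HOXC4, the first gene of the HOXC cluster here, went from 16.8 CPM (8.50 to 27.6) in skin to 2.33 CPM (1.40 to 6.16) in the center of days 4 to 9, without overlap, at a log2 fold change of -2.86 ± 0.22 (adjusted p = 2.29e-23). HOXA2 (-3.34 ± 0.42) and HOXD11 (-2.83 ± 0.43) were also among the most lowered genes of that contrast. HOXC12 had 2 to 10 counts in the skin samples and at most 1 count in the 30 center samples of days 4 to 9. At the edge in the same window HOXC4 (-1.64 ± 0.23), HOXA2 (-1.37 ± 0.44), HOXA3 (-1.32 ± 0.23) and HOXA4 (-1.22 ± 0.19) followed HOXC13.

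Among the genes higher than skin, HOXB9 had 0 to 7 counts in skin and was called in all 6 contrasts. Its median was 0.116 CPM in skin, 1.199 CPM (0 to 1.95) at the edge and 2.05 CPM (0.570 to 3.17) in the center of days 4 to 9, and the center samples did not overlap skin. The log2 fold changes were 2.52 ± 0.49 and 3.53 ± 0.51 (adjusted p = 4.70e-06 and 6.44e-10). HOXA9 had 8 to 44 counts in skin, and was higher by 1.82 ± 0.56 at the edge and 1.89 ± 0.56 in the center in that window, with overlapping ranges. On day 4 the edge counts of HOXA9 were 112, 149 and 195 in wound F and 7, 31 and 26 in wound G.

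HOXA10 and HOXA11, the next genes of the HOXA cluster, held at most 3 and 2 counts in any skin sample, so no fold is given for them. HOXA10 reached 256 counts at the edge and 345 counts in the center in days 4 to 9, but its median there was 0 and 1 count. HOXA11 reached 54 counts at the edge and 25 in the center in days 11 to 21, with medians of 8.5 and 8. Most wound samples thus had little HOXA10 and a few had a great deal.

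HOXD1, HOXD3, HOXD4 and HOXD8, the anterior and middle genes of the HOXD cluster, were all higher than skin in the center of days 4 to 9. HOXD1 and HOXD3 were not called there in days 1 to 3. The HOXD1 median in the center was 0.228 CPM on day 1 and reached 1.57 CPM by day 4 and 3.03 CPM by day 6, against 0.302 CPM (0.180 to 0.578) in skin. Day 1 used wounds A and L, day 4 F and G and day 6 B and K, so day and wound letter cannot be told apart. In days 4 to 9 HOXD1 was higher by 2.64 ± 0.59 in the center and 1.62 ± 0.56 at the edge (adjusted p = 3.67e-05 and 0.0102). HOXD3 (1.56 ± 0.29), HOXD4 (1.40 ± 0.28) and HOXD8 (1.22) rose by less. HOXD9 was lower than skin by -0.61 in the center in days 1 to 3 and higher by 1.00 in days 11 to 21.

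Markers of other cell types moved against skin too. In the center in days 4 to 9 all 9 keratinocyte markers were lower, with a median log2 fold change of -7.82 beside the -7.88 of HOXC13, and in days 1 to 3 and 11 to 21 it was 9 of 9 (-5.45) and 7 of 9 (-2.07). At the edge 0 of 9 passed the test in any window, with medians of -0.45, -0.57 and -0.23. In the center all 8 endothelial and all 10 neutrophil and macrophage markers were higher in each window, and at the edge 4, 7 and 6 of 8 and 10 of 10 were. Of 10 fibroblast markers, 3, 4 and 8 were higher and 5, 1 and 1 lower in the center and 2, 4 and 7 were higher and 6, 3 and 0 lower at the edge. Muscle markers were higher in the center in 8, 7 and 0 of 8 genes and adipocyte markers in 8, 2 and 1 of 8. Over all genes 33.6%, 34.5% and 28.6% were higher and 33.2%, 36.8% and 33.1% lower in the center in the 3 windows. At the edge 24.9%, 28.2% and 20.8% were higher and 23.9%, 27.2% and 20% lower. The adipocyte counts of the last 2 windows lie below these shares, and nothing is read from them. The part of these cell types in the HOX differences was not tested.

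**Figure D3:**
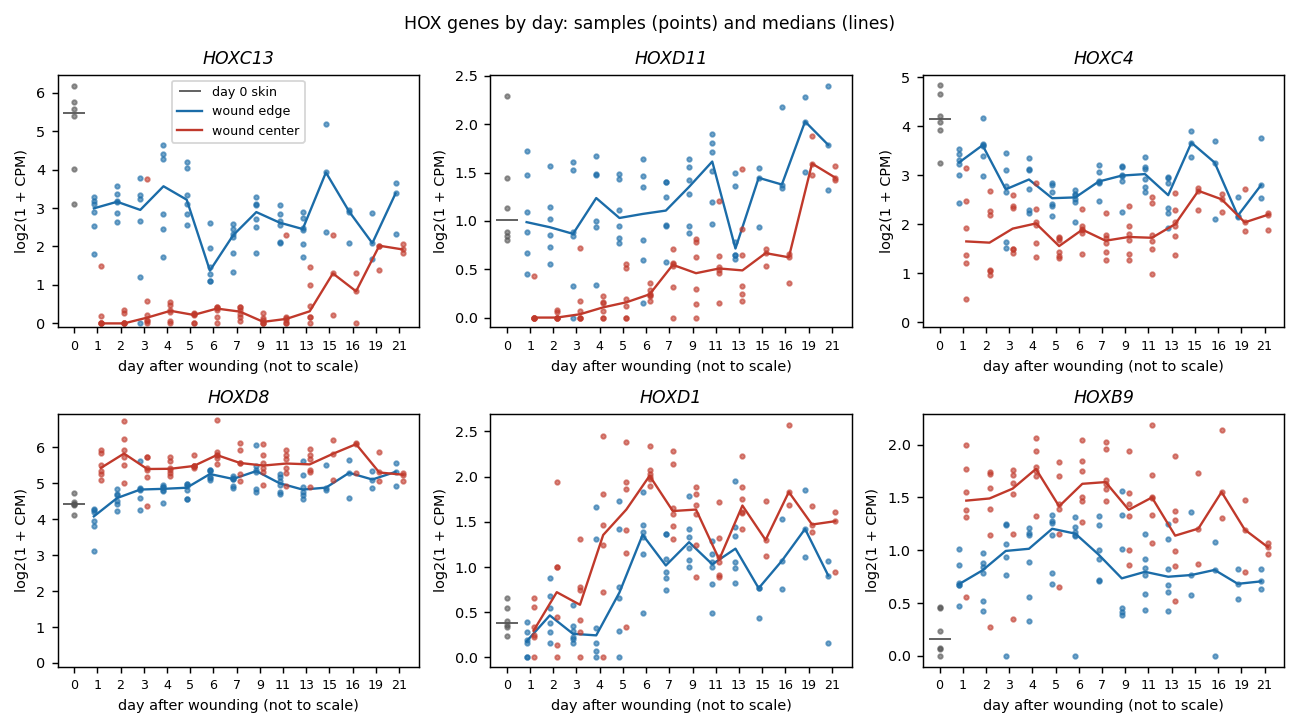
Log2(1 + CPM) of HOXC13, HOXD11, HOXC4, HOXD8, HOXD1 and HOXB9 by day after wounding (days are evenly spaced and not to scale), with 1 point a sample and lines through the medians of day 0 skin, wound edge and wound center. The HOXD11 center median goes from 0 CPM on day 1 to 1.73 CPM on day 21, and HOXD1 reaches its center median of 3.03 CPM on day 6. The wound letters differ between these days.

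The third comparison asked whether the difference between edge and center changed between days 1 to 3 and days 11 to 21. These windows share no wound letter, so day and letter cannot be told apart in it. The genes whose edge minus center difference moved down included HOXD11 (-2.91 ± 0.56, adjusted p = 1.42e-05), HOXD10 (-1.90 ± 0.40), HOXC13 (-1.74 ± 0.66), HOXA2 (-1.47 ± 0.53) and HOXC5 (-0.56 ± 0.21). The difference moved up for HOXB4 (0.86 ± 0.22) and HOXD8 (0.75 ± 0.17). Both were called higher in the center on days 1 and 2, so this move was away from the center side. In all, 6 of 34 HOX genes moved down and 2 moved up, where 16.2% and 16% of all genes were called. The number of genes that moved down was 2 without animal 1323, 3 without animal 1326 and 3 without animal 1328. HOXC13 and HOXA2 lost their call without each of these animals, with values of -0.52, -1.49 and -1.39 for HOXC13 and of -0.89, -1.28 and -1.41 for HOXA2. HOXC13 moved to -3.00, -2.75 and -3.09 without animals 1324, 1325 and 1327 and to -2.47 without the 7 libraries that stood apart. HOXC5 lost its call without animal 1323, 1325, 1327 or 1328, whereas HOXD10, HOXD11, HOXB4 and HOXD8 were called in each of these fits.

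HOXD11 showed this in its counts. The center median was 0 CPM (0 to 0.351) on day 1 and 1.73 CPM on day 21, while the edge median was 0.988 CPM on day 1 and 2.45 CPM on day 21. HOXC13 in the center had a median of 0 CPM (0 to 1.81) on day 1 and of 2.79 CPM (2.54 to 3.19) on day 21. Day 1 used wounds A and L and day 21 wound I, so for both genes day and wound letter cannot be told apart. The center keratinocyte markers moved as well, from a median summed level of 186 CPM in days 1 to 3 to 3160 CPM in days 11 to 21, and their part in the result was not tested.

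The last comparison concerned position on the back. The letters A to L name the 12 wounds of each animal, and the sampling outline of the study draws A to F in an upper line and G to L in a lower line. Which end of a line faced the head is not given in the sources used here. Since each of 10 days used 2 wounds of each of 3 animals, the 2 wounds could be compared within animal and day, in 5 pairs of letters, each over 6 animals. These are L against A (days 1 and 2), F against G (days 3 and 4), K against B (days 5 and 6), E against H (days 7 and 9) and J against C (days 11 and 13). This comparison of letters was added after the levels by letter were seen.

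At the edge, few genes differed by letter, and HOX genes had the smallest p-values among them. A joint edgeR test over the 5 pairs called 7 of 17235 genes, or 0.0406%, and 3 of these 7 were HOX genes. HOXA9 ranked first (adjusted p = 4.78e-06), HOXC10 second (adjusted p = 5.37e-05) and HOXA10 had rank 4 (adjusted p = 0.0159). The other 4 were WNT2, DCLK1, ADAM12 and FMOD, named here because the count is small. HOXA9, HOXA10 and HOXC10 belong to paralog groups 9 and 10. HOXB9, HOXC9, HOXD9 and HOXD10 of the same groups were not called by this joint test.

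HOXC10 (ENSSSCG00025039643, LUXX01048831.1, positions 746212 to 751378, minus strand) held 2, 1, 0, 2, 4 and 0 counts in the 6 edge samples of wound A and 27, 12, 21, 55, 20 and 37 counts in those of wound L. In wound G it held 2, 0, 2, 0, 0 and 11 counts, and in wound F 49, 40, 38, 70, 66 and 37. In wound C it held 53, 49, 38, 42, 37 and 68 counts, and in wound J 9, 0, 8, 3, 1 and 9. In none of these 3 pairs did the wounds overlap, nor did E (12 to 48 counts) and H (2 to 11), whereas K (11 to 32) and B (3 to 19) did.

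The log2 fold change of HOXC10 at the edge was 4.18 ± 0.76 for L against A (adjusted p = 0.0308) and 4.93 ± 0.75 for F against G (adjusted p = 0.00246), while J against C gave -3.20 ± 0.67 with an adjusted p of 0.280. Taking the animal as the unit, HOXC10 was higher in 6 of 6 animals in L than in A, in F than in G and in E than in H, and lower in 6 of 6 in J than in C. Each of these has an exact two-sided sign-flip p of 0.031, the smallest that 6 animals allow, before any adjustment for the number of genes and pairs.

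HOXA9 (LUXX01099915.1, positions 1404742 to 1407822, minus strand) had edge counts of 3 to 36 in wound A (median 18) and 41 to 152 in L (median 63.5). It had 7 to 31 counts in G (median 22.5) and 66 to 195 in F (median 115), and 77 to 233 in C (median 127.5) against 22 to 68 in J (median 38). Again the wounds of a pair did not overlap in any of the 3. The log2 fold changes were 2.18 ± 0.33 (adjusted p = 0.00532) for L against A, 2.79 ± 0.33 (adjusted p = 4.14e-05) for F against G, and -1.55 ± 0.31 (adjusted p = 0.252) for J against C. HOXA9 was the gene with the smallest p-value of all genes in each of these 3 pairs.

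HOXA10 (LUXX01099915.1, positions 1413009 to 1423036, minus strand) was near 0 in one wound of each of these pairs. Its 6 edge samples of wound A held 0 to 1 counts and those of wound L 5 to 32. Wound G held 0 to 10 counts and wound F 25 to 88. Wound C held 5 to 52 counts and wound J 0 to 3. HOXA10 was higher in 6 of 6 animals in L than in A and in F than in G and lower in 6 of 6 in J than in C, with an exact sign-flip p of 0.031 each. In the fits it was called for F against G alone (adjusted p = 0.0152), with 0.150 for L against A. The F against G call of HOXA10 was lost without animal 1324, 1326, 1327 or 1328.

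By pair at the edge, 2 of 33 HOX genes were higher in L than in A, where 0.0232% of all genes were called, and 3 were higher in F than in G, where 0.383% were, or 0.406% in either direction. In the pairs K against B, E against H and J against C, 0 HOX genes and 0% of all genes were called by edgeR, and at an unadjusted p under 0.05 there were 2 higher and 3 lower, 2 higher, and 9 lower HOX genes. Left out in turn, animals 1323 to 1328 gave 2 to 4 HOX calls over the 5 edge pairs in place of 5. These were 2 without animal 1324 or 1326 and 3 without animal 1325, 1327 or 1328. HOXA9 in F against G was called in each of these fits, at 2.59 to 2.93, whereas HOXC10 in L against A was called in 0 of the 6 (3.82 to 4.74). HOXC10 in F against G was lost without animal 1326 and HOXA9 in L against A without animal 1324 or 1325.

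The center samples of the same wounds differed in the same 3 genes, among many others. The joint test called 2892 of 17177 genes (16.8%), with HOXA9 at rank 8, HOXC10 at rank 16 and HOXA10 at rank 111, and 10 of 32 HOX genes were called. L against A gave log2 fold changes of 2.78 ± 0.43 for HOXA9 and 3.61 ± 0.67 for HOXC10, and F against G of 3.23 ± 0.43 and 4.51 ± 0.68. HOXC10 held 0 to 13 center counts in A and 18 to 89 in L, 1 to 6 in G and 44 to 89 in F, and 22 to 54 in C and 1 to 19 in J, without overlap in any of the 3 pairs. HOXA9 and HOXC10 were higher in 6 of 6 animals in L and F and lower in 6 of 6 in J (exact sign-flip p = 0.031).

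In the center some anterior and middle genes moved the other way. L against A had 3 HOX genes higher and 5 lower, where 9.89% and 10.6% of all genes were called, and F against G had 4 higher and 1 lower, against 4.19% and 3.38%. HOXC4 held 6 to 25 counts in L and 53 to 134 in A, without overlap (-2.04 ± 0.30, adjusted p = 4.18e-05), and was lower in F than in G by -1.04 ± 0.28 (adjusted p = 0.0224). In the center HOXB7 held 52 to 111 counts in L and 130 to 186 in A (-0.94 ± 0.24, adjusted p = 0.00757). HOXB3, HOXC5 and HOXC8 were the other 3 lower in L. HOXC8 lost that call without any one animal other than 1326 and without the filter on low counts, HOXC5 without animal 1323, and HOXC4 in F against G without animal 1325 or 1328. Without the 7 libraries that stood apart there were 20 HOX calls over the 5 center pairs in place of 13, and 6 over the edge pairs in place of 5. In the center, HOXA11 was also higher in F (4.65 ± 0.96). The pairs K against B and E against H had 0 HOX calls and 0% of all genes called by edgeR. At an unadjusted p under 0.05 there were 0 higher and 1 lower HOX genes in the first and 1 of each in the second. J against C had 0 HOX calls where 0.0291% and 0.0233% of all genes were called, with 3 higher and 7 lower HOX genes at an unadjusted p under 0.05.

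**Figure D4:**
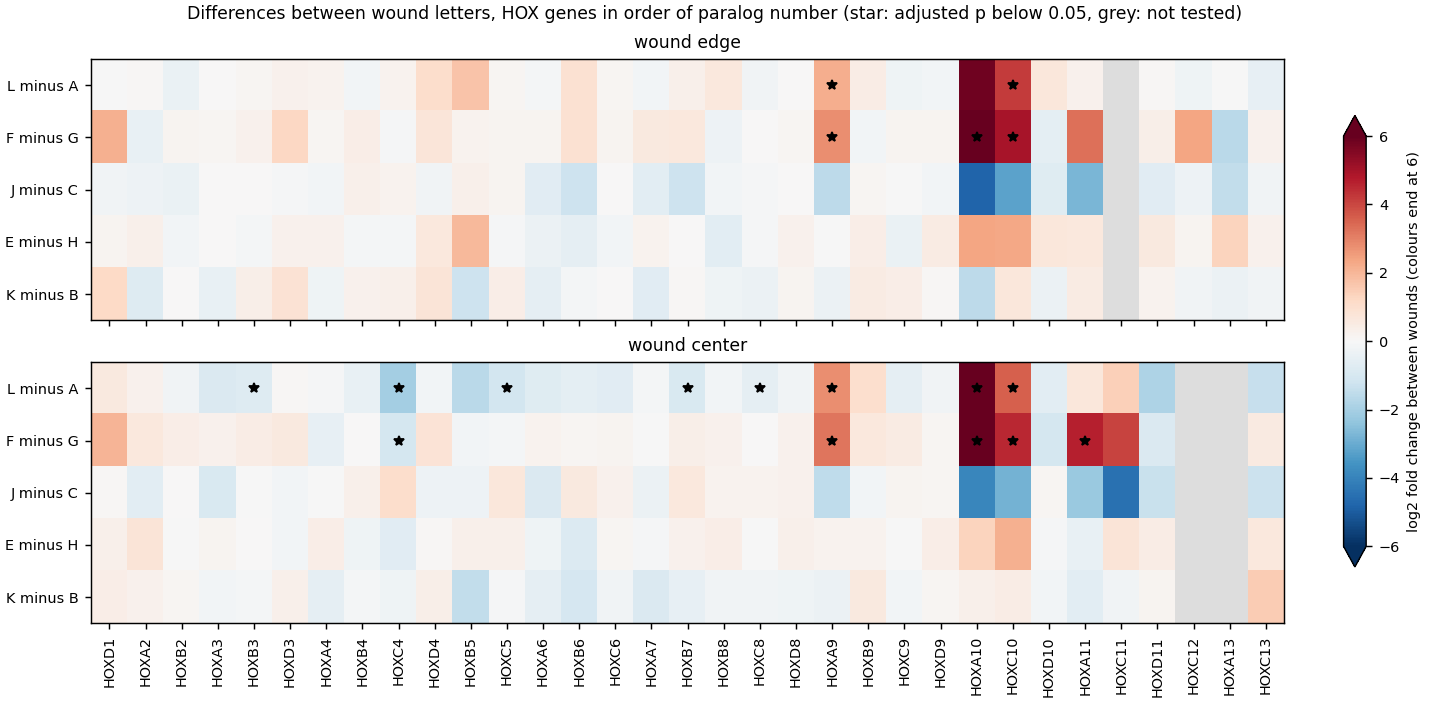
Log2 fold change between the 2 wounds of an animal and day for the HOX genes in order of paralog number, at the wound edge (top) and center (bottom), with red for higher in the first letter, blue for lower, grey for not tested and a star for an adjusted p below 0.05 (colours end at 6). The colours gather at HOXA9, HOXA10, HOXC10 and HOXA11, red in L minus A and F minus G and blue in J minus C, with stars at the edge on HOXA9, HOXA10 and HOXC10 alone.

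Taken letter by letter, the levels had an order that the 2 lines of the outline do not give. The median HOXC10 level at the edge was 0.0892 CPM in A, 0.574 in B and 2.16 in C. It was 0.245 in D, 1.66 in E and 2.94 in F, then 0.0504 in G, 0.338 in H and 3.37 in I, and 0.370 in J, 0.809 in K and 1.57 in L. Within each run of 3 letters from A to C, D to F, G to I and J to L the median thus rose from the first to the third letter. The center medians of HOXC10 did so too, with 0.183, 0.769 and 2.12 CPM in A, B and C, 0.190, 1.03 and 3.36 in D, E and F, 0.118, 0.321 and 3.38 in G, H and I, and 0.281, 1.16 and 2.19 in J, K and L.

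This order was noticed in the HOXC10 values themselves and no test was run on it. The runs were thus chosen to suit HOXC10, and the shares of all genes below are a description that cannot count in its favour. Of 14939 genes with a mean count of at least 10, 2 had rising medians in all 4 runs at the edge (0.0134%), and both were HOX genes, HOXC10 and HOXB7. In the center 3 genes did (0.0201%), and HOXC10 was the 1 gene of the 14939 that did at both locations. Falling medians in all 4 runs occurred in 4 genes at the edge (0.0268%) and in 16 in the center (0.107%). HOXA9 rose in 3 of 4 runs at both locations, the exception being J to K, at 2.54 and 2.45 CPM at the edge and 2.31 and 2.29 CPM in the center, where K did not reach J. HOXC8, the trunk gene that is high in all samples, varied little by letter at the edge, with medians of 280 to 359.5 counts. The letter went with the day, with I sampled on days 19 and 21 and D on days 15 and 16, so outside the 5 pairs a letter and its days cannot be told apart.

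**Figure D5:**
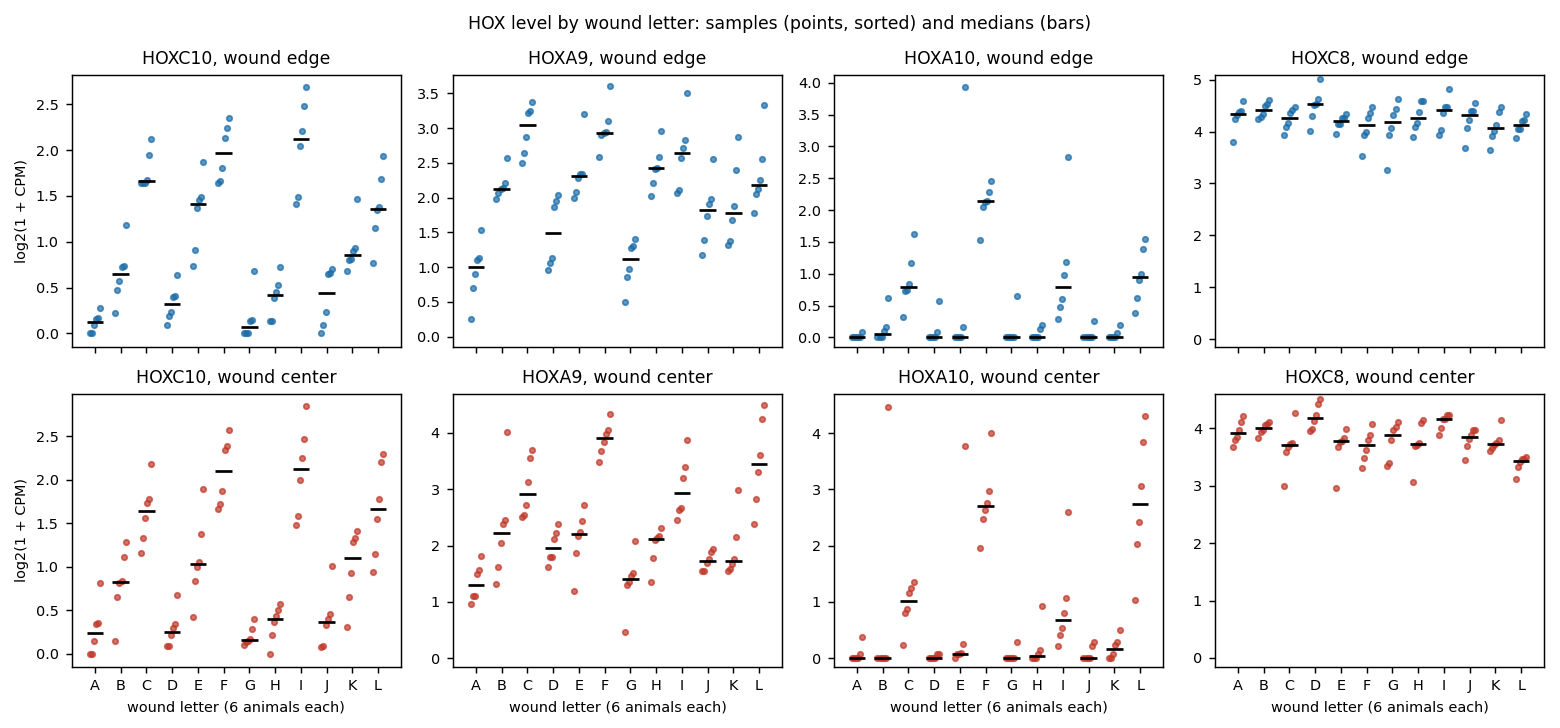
Log2(1 + CPM) of HOXC10, HOXA9, HOXA10 and HOXC8 in each wound letter at the edge (top) and in the center (bottom), with 1 point for each of 6 animals (sorted by value) and a bar at the median. HOXC10 is highest in I and F and lowest in A and G at both locations, HOXA10 has its highest medians in F, L, I and C and is near 0 in most other letters, and HOXC8 varies little at the edge.

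The comparison laid down from the outline itself was a slope over its 6 columns, with the line as a second term and the animal and day as a block. At the edge 4 of 33 HOX genes had a rising slope, where 0.151% of all genes did, and 0 a falling one by edgeR, where 0.0464% did and where 0 HOX genes fell at an unadjusted p under 0.05. They were HOXC10 (0.73 ± 0.11 log2 units per column, adjusted p = 0.00298), HOXA10 (0.95 ± 0.19), HOXA9 (0.32 ± 0.07) and HOXD4 (0.19 ± 0.04), the last 3 at an adjusted p of 0.0479. By animal, the mean HOXC10 level of columns 4 to 6 was above that of columns 1 to 3 in 6 of 6 animals (1.195 against 0.620 on the log2(1 + CPM) scale, exact sign-flip p = 0.031). Without animal 1324 the count was 2 and without animal 1325, 1326, 1327 or 1328 it was 1, and it was 0 on days 5 to 13 alone, where the slopes of HOXA9 and HOXA10 turned to -0.12 and -0.03. Days 1 to 4 held only wounds A, F, G and L, the ends of the 2 lines, and days 5 to 13 only wounds between them. Days and columns thus cannot be told apart here, and the slope used the same samples as the letter pairs.

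Genes at the ends of the clusters gave no slope at the edge that passed the test. The slope was -0.11 ± 0.12 for HOXA13, -0.03 ± 0.02 for HOXB2 and 0.06 ± 0.06 for HOXB9. It was 0.02 ± 0.03 for HOXC4 and -0.01 ± 0.08 for HOXC13, and 0.20 ± 0.09 for HOXD1 and 0.06 ± 0.06 for HOXD11. Across the 33 genes the Spearman correlation of slope and paralog number was 0.160, a description over genes that share the libraries. In the center it was 0.233 over 32 genes.

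In the center, HOXA10 (1.28 ± 0.21), HOXC10 (0.67 ± 0.10), HOXA9 (0.42 ± 0.08) and HOXB9 (0.15 ± 0.05) had rising slopes and HOXC4 a falling one (-0.25 ± 0.05), where 10% and 11.1% of all genes were called. On days 5 to 13 alone all 5 calls were lost, at 0.08 for HOXA10, 0.35 for HOXC10, 0.12 for HOXB9 and -0.12 for HOXC4, and HOXA9 turned to -0.074. HOXB9 also lost its call without animal 1324 and with counts summed per animal. HOXC4 was the 1 HOX gene whose slope differed between the locations, by 0.26 ± 0.06 (adjusted p = 0.0226, against 0.82% of all genes). That call was lost without animal 1323, 1326 or 1327. The upper and lower lines differed in 0 HOX genes and 0% of all genes by edgeR at either location, with 7 HOX genes lower at the edge and 10 lower in the center in the lower line at an unadjusted p under 0.05. By animal, HOXC10 and HOXA9 were lower in the lower line in 6 of 6 animals at both locations (by -0.52 and -0.39 at the edge on the log2(1 + CPM) scale, exact sign-flip p = 0.031), before any adjustment. Of the 30 animal-and-day pairs, HOXC10 was lower in that line in 19 and HOXA9 in 18 at the edge, and both in 19 in the center. The letter pairs went opposite ways, with L of the lower line above A of the upper line. The line difference used the same samples as the letter pairs.

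Markers of other cell types moved with the letters in part. In L against A in the center, endothelial markers were lower in 6 of 8 genes (median log2 fold change -0.67), neutrophil and macrophage markers higher in 4 of 10 and adipocyte markers lower in 2 of 8. Over all genes 9.89% were higher and 10.6% lower for that pair. Over the columns in the center, 6 of 10 fibroblast and 4 of 8 muscle markers had rising slopes and 6 of 8 adipocyte markers falling ones. Over all genes 10% of slopes were called rising there and 11.1% falling. Skeletal muscle markers were higher in L than in A in 6 of 8 genes in the center but in 0 of 8 at the edge, and 0 of 8 passed the test between F and G at either location, although their median log2 fold change in the center was 6.61 for that pair and 10.9 for L against A. At the edge the muscle median was 5.45 for E against H, with 0 of 8 called. Adipocyte markers were lower in F than in G in 4 of 8 genes in the center and 1 of 8 at the edge. Fibroblast markers were higher in F than in G in 7 of 10 genes in the center and in 2 of 10 at the edge, and in 0 of 10 for L against A at the edge. Of the keratinocyte markers, 0 of 9 passed the test in any of the 5 pairs at either location. At the edge, where HOXA9 and HOXC10 differed between L and A, 0 genes of the fibroblast, endothelial, keratinocyte, leukocyte, muscle and adipocyte lists were called for that pair. Only 0.0232% of all genes were called for it, so nothing is read from this 0.

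HOXA10 also went with muscle. In 7 of the 150 samples the summed muscle markers exceeded 10000 CPM, a limit set after the values were seen, and these held 141 to 368 HOXA10 counts. The other 143 samples held at most 118, and 67 of them held 0. Among the 7 were a center sample of wound B with 345 counts and the edge and center samples of 1 wound E with 256 and 227 counts, all of animal 1328, while the medians of letters B and E were near 0. HOXA9 in these 3 samples held 247, 147 and 101 counts, where the other 5 animals held 28 to 68, 51 to 77 and 24 to 70. HOXC10 in the same 3 samples held 19, 12 and 14 counts, where the other 5 animals held 2 to 23, 15 to 48 and 6 to 48. The remaining muscle-rich samples were center samples of wounds L and F, letters with high HOXA10 medians. The part of muscle in the HOXA10 and HOXA9 values was not tested.

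The genes that work with HOX proteins or act on their loci were taken from 4 lists. Between edge and center over the 14 days, 32.5% of all genes were called higher at the edge and 33.8% lower. Of 9 genes of the TALE class, the homeobox cofactors that bind DNA together with HOX proteins, 4 were higher at the edge over the 14 days and 5 lower. PKNOX2 was higher by 1.22 ± 0.14 and PBX4 by 0.75 ± 0.11, and MEIS3 was lower by -0.90 ± 0.07 and MEIS1 by -0.52 ± 0.08. Of 21 Polycomb and Trithorax genes, which keep HOX loci silent or active, 9 were higher and 5 lower, with CBX7 (0.70 ± 0.11) and BMI1 (-0.39 ± 0.04). Of 20 other transcription factors that carry positional information in skin and limb, 6 were higher and 8 lower, with LMX1B (2.75 ± 0.20), TBX4 (2.00 ± 0.17) and TBX2 (-1.28 ± 0.09). Of 12 HOX-linked and ParaHox genes only 4 had enough counts, of which 1 was higher and 3 lower. Between the wounds of a pair at the edge, 0 genes of these 4 lists were called by edgeR in any of the 5 pairs. Over all genes 0% to 0.406% were called in a pair there, in either direction. The edge column slope called 1 TALE gene, PKNOX1, where 0.197% of all genes were called in either direction. In the center, L against A had 2 TALE genes higher and 1 lower, 3 and 1 of the Polycomb and Trithorax list and 3 and 1 of the other positional factors. The shares of all genes for that pair were 9.89% higher and 10.6% lower. F against G had 3 and 1, 0 and 0, and 3 and 0, against 4.19% and 3.38% of all genes.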

How the data were processed

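Total RNA from 150 porcine skin and wound samples was poly-A enriched and sequenced in pairs by a commercial provider. After read filtering and alignment, the authors deposited raw read counts per gene. The aligner, counter, genome build and strand setting are not given in the sources used here. The deposited counts were used as they stand, with TMM scaling, and CPM and CPM per kilobase of gene length were computed from them.

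Tests were edgeR 4.0.16 quasi-likelihood fits in R 4.3.3 over all genes that passed filterByExpr (minimum count 10), with Benjamini-Hochberg adjustment over all genes and a threshold of 0.05. Standard errors are the fold change over the square root of F. All 150 samples in 29 groups were fitted together for the 14-day and day 0 comparisons, each day alone for the daily ones, and wound columns and letter pairs with the animal and day as a block. Values by animal used exact two-sided sign-flip tests. Samples of an animal were treated as separate in the 150-sample fit and in the daily fits, each of which rests on 3 animals. The scripts were tested on simulated data.

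Edge and center samples of 1 wound are paired by the labels. Over 72 wounds their deviations had a median correlation of 0.271 (-0.292 to 0.847), against -0.0648 for other wounds.

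By rule, HOX genes were named, with full values for the 3 highest per length in skin, and in each comparison for up to 5 genes in each direction with the largest called change. For the wound column the first and last tested gene of each cluster were added, and for other lists up to 2 genes in each direction. Results of some named items are not reported here. The members and lists were chosen with earlier results of these data known. Alternatives were DESeq2 1.42.0, no filter, other blocks, samples left out and each animal left out.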

Additional observations from a re-analysis of the deposited data

Results flagged for a closer look

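Over 84 groups of 6 samples, formed by 4 clusters and the states with 6 animals or wounds, 4 groups held a sample far from the others by Dixon's test, where chance gives 4.2. On the scale of the mean log2(1 + CPM) of a cluster, these were the HOXA mean of day 6 center replicate 5 (2.05, the highest), the HOXB mean of day 3 center replicate 4 (0.965, the lowest), the HOXC mean of day 2 edge replicate 6 (2.70, the highest) and the HOXD mean of day 1 edge replicate 3 (0.889, the lowest).

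The difference between edge and center changed from days 1 to 3 to days 11 to 21 by a test of the change itself for HOXA2 (-1.47), HOXC13 (-1.74), HOXC5 (-0.56), HOXD10 (-1.90), HOXD11 (-2.91), HOXB4 (0.86) and HOXD8 (0.75). Without animal 1323 the HOXC13 change was -0.52 and was not called. The column slope of HOXC4 differed between edge and center by 0.26, a call lost without animal 1323, 1326 or 1327.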

How the results depend on the processing

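Alternatives changed few edge and center results and many position results, and the cause was not tested. The fit on days 5 to 13 alone also takes away wounds A, F, G and L, so its days and columns cannot be told apart. Column slopes on days 5 to 13 alone turned to -0.12 for HOXA9 and -0.029 for HOXA10 at the edge and to -0.074 for HOXA9 in the center. On those days the called HOX slopes numbered 0 at the edge, 0 rising and 0 falling in the center, and 0 for the difference. With columns as 2 classes they were 0 at the edge and 1 rising and 0 falling in the center, with counts summed per animal 0 at the edge, and without a filter 1 at the edge, where 1 gene was higher than skin in days 1 to 3. DESeq2 called 2 HOX genes lower in the lower line at the edge and 1 in the center, and 11 in the letter pairs at the edge and 22 in the center, in place of 5 and 13. Without the 7 libraries that stood apart the center pairs had 20.

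Leaving out each animal or replicate gave 61 to 69 daily calls higher at the edge and 17 to 22 higher in the center (17 without replicate 1 or 3). It gave 1 to 2 genes higher at the edge than skin in days 1 to 3 and 2 to 6 whose late difference moved down. It also gave 1 to 4 rising slopes at the edge, 0 to 1 slope difference, and 2 to 4 and 11 to 16 calls in the edge and center pairs. Over the 14 days it gave 13 higher and 9 to 12 lower.

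With the wound as a replicate block the daily calls were 88 and 26 and the 14-day calls 14 and 12. With no replicate block the slopes gave 4 at the edge and the letter pairs 7 and 14. The block moved none of these totals by over 1.5 times, though it moved the calls of days 2, 4, 6 and 16. Genes with few counts, such as HOXA13, limit what this depth can show.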
